A study of Mus musculus with 12 samples.

Results

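The genes described here are 8 that are widely used to mark tuft cells: Dclk1, Trpm5, Pou2f3, Il25, Avil, Gfi1b, Sh2d6 and Alox5ap. They were chosen by name from general knowledge of the cell type, and they are 8 of 54532 genes in each of the 2 expression tables. The study removed ieCtnnb1, an intestinal enhancer of Ctnnb1 (the gene of β-catenin), and measured RNA in bulk in small-intestinal crypts and in colon tumors. Paired-end RNA-seq gave 12 libraries, 3 in each of 4 groups. The values are FPKM, fragment numbers scaled to gene length and library size, so levels of genes of unlike length can be compared.

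The crypts came from adult Wild type mice and from adult ieCtnnb1KO mice, in which the enhancer was deleted on both alleles in every cell of the body rather than in the intestine alone. The tumors came from 5-month-old APCmin/+ mice and from APCmin/+;ieCtnnb1KO mice of the same age. All tumor mice carried the Min allele of Apc, the tumor control group included, although the sample titles call those controls WT. All mice were on a C57BL/6 background and untreated. The replicates are described as mice in the study, whereas the labels do not tie a library to an animal, and the p-values below measure the spread between these libraries. Each library held 14457896 to 16156712 fragments on genes, recovered from the FPKM values, and the tables of the 2 tissues were normalized separately.

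Tuft cells are rare chemosensory cells of the intestinal epithelium. They sense luminal metabolites through a taste-like cascade that opens the cation channel TRPM5, and they release interleukin-25, cysteinyl leukotrienes and acetylcholine. Interleukin-25 acts on type 2 innate lymphoid cells, whose interleukin-13 in turn drives tuft and goblet cell expansion. The transcription factor POU2F3 is required for the lineage.

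Ctnnb1, the gene whose enhancer was deleted (ENSMUSG00000006932, chromosome 9, positions 120929216 to 120960507 of GRCm38, forward strand), was read first. In crypts it stood at 121, 134 and 123 FPKM in Wild type and at 102, 104 and 105 FPKM in ieCtnnb1KO. In tumors it stood at 299, 363 and 358 FPKM in APCmin/+ and at 279, 248 and 250 FPKM in the knockout. Each knockout library lay below every control library of its tissue. The same held for 730 of all 14176 genes tested in crypts (5.15%) and for 1781 of 16743 in tumors. On the scale of log2(FPKM + 0.5), used for all fold changes here, the difference was -0.28 ± 0.12 (SE) in crypts, where limma gave an adjusted p = 0.849. It was -0.39 ± 0.13 (SE) in tumors, where limma gave an adjusted p = 0.303. The labelled tissues also carried their defining genes: the stem cell gene Olfm4 stood at 530 to 964 FPKM in crypts and at most 0.209 FPKM in tumors, whereas the distal colon gene Hoxb13 was 0 in all 6 crypt libraries and 70.1 to 128 FPKM in tumors. Epcam, a gene of all intestinal epithelium, stood at 659 to 797 FPKM in crypts and 696 to 896 FPKM in tumors.

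One crypt library stood apart for the tuft cell genes. ieCtnnb1KO replicate 3 held the highest value of the 6 crypt libraries for 7 of the 8 genes, a count made after the values had been seen. Over all 14176 genes tested in crypts the same library was the highest for 2080 (14.7%). Its depth, 14685020 fragments, lay within the range of the other libraries. After scaling, 1 fragment stood for an FPKM times gene length of 71.2 in it and of 59.7 to 65.4 in the other crypt libraries. An equal number of fragments thus gave a higher FPKM in replicate 3. For Trpm5, Dclk1 and Sh2d6 ieCtnnb1KO replicates 1 and 2 lay below all controls while replicate 3 lay above them, and the groups overlapped for each of the 8 genes. Crypt results are therefore given with and without replicate 3, those without it as a description and not a test, because the library was singled out by its values for these genes.

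Of the 8 genes, 7 passed the filter on low values (a mean of at least 0.5 FPKM over the libraries compared) in crypts, where Il25 did not. In tumors 4 passed (Dclk1, Avil, Sh2d6 and Alox5ap), and Trpm5, Pou2f3, Gfi1b and Il25 did not. In crypts the most abundant was Sh2d6 with a mean of 18.4 ± 7.56 FPKM (SD, n = 6), followed by Avil (8.54 ± 3.32), Trpm5 (6.68 ± 2.22), Alox5ap (3.48 ± 1.54), Pou2f3 (3.37 ± 1.36), Dclk1 (2.46 ± 0.986), Gfi1b (0.903 ± 0.477) and Il25 (0.162 ± 0.148). The ranges of each 2 neighbours in that order overlapped. Within every single library the order still held for all neighbours except Avil with Trpm5 and Alox5ap with Pou2f3.

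The lineage factors come first. Pou2f3, an octamer-binding transcription factor (ENSMUSG00000032015, chromosome 9, positions 43123939 to 43210369, reverse strand), measured 3.05, 3.41 and 2.48 FPKM in Wild type crypts and 2.53, 2.69 and 6.04 FPKM in ieCtnnb1KO crypts. The first 2 knockout libraries lay within the control range, and replicate 3 lay above every control. The log2 fold change was 0.20 ± 0.31 (SE; 95% interval -0.52 to 0.92), and -0.16 (-0.59 to 0.28) without replicate 3. Gfi1b, a transcriptional repressor that is also expressed in red cell and platelet precursors (ENSMUSG00000026815, chromosome 2, positions 28609450 to 28621982, reverse strand), measured 0.388, 1.36 and 0.593 FPKM in Wild type and 0.604, 0.881 and 1.60 FPKM in ieCtnnb1KO. The groups overlapped, with a log2 fold change of 0.27 ± 0.36 (SE), or 0.02 without replicate 3. These Gfi1b values rest on 11 to 41 fragments per library.

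Trpm5 and Dclk1, a channel and a kinase, are common markers of tuft cells. Trpm5, the channel that ends the chemosensory cascade (ENSMUSG00000009246, chromosome 7, positions 143069153 to 143094642, reverse strand), measured 5.88, 7.90 and 7.60 FPKM in Wild type and 4.39, 4.33 and 9.98 FPKM in ieCtnnb1KO. Replicates 1 and 2 of the knockout were the lowest of the 6 libraries and replicate 3 the highest. Over all 6 libraries the log2 fold change was -0.27 ± 0.31 (SE; 95% interval -1.01 to 0.47), and it was -0.64 (-1.06 to -0.22) without replicate 3. Dclk1, a microtubule-associated kinase (ENSMUSG00000027797, chromosome 3, positions 55242364 to 55539068, forward strand), measured 2.06, 3.26 and 2.48 FPKM in Wild type and 1.56, 1.47 and 3.96 FPKM in ieCtnnb1KO. It had the same arrangement, with the knockout holding both the 2 lowest values and the highest. Its log2 fold change was -0.22 ± 0.34 (SE; 95% interval -1.02 to 0.57), and -0.60 (-1.13 to -0.08) without replicate 3.

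Sh2d6, an adaptor protein with an SH2 domain (ENSMUSG00000052631, chromosome 6, positions 72513644 to 72521634, reverse strand), measured 14.3, 18.1 and 23.8 FPKM in Wild type and 11.2, 12.5 and 30.8 FPKM in ieCtnnb1KO. Here too the knockout libraries lay on both sides of all controls. Over all libraries its log2 fold change was -0.16 ± 0.39 (SE), and -0.61 (95% interval -1.17 to -0.05) without replicate 3. Avil, the actin-binding protein advillin (ENSMUSG00000025432, chromosome 10, positions 127000709 to 127020994, forward strand), measured 5.59, 10.1 and 9.86 FPKM in Wild type and 6.47, 5.41 and 13.8 FPKM in ieCtnnb1KO. Wild type replicate 1 was close to the low knockout libraries, so the groups overlapped with and without replicate 3. Its log2 fold change was -0.057 ± 0.37 (SE), became 0.083 when the libraries were scaled to the same total, and was -0.44 (95% interval -1.12 to 0.23) without replicate 3.

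The effector genes were Il25 and Alox5ap. Alox5ap encodes the protein that presents arachidonic acid to 5-lipoxygenase (ENSMUSG00000060063, chromosome 5, positions 149264767 to 149288153, forward strand), and measured 1.68, 4.01 and 4.45 FPKM in Wild type and 1.86, 3.19 and 5.67 FPKM in ieCtnnb1KO. Both groups spanned low and high values, and the log2 fold change was 0.05 ± 0.43 (SE), or -0.31 without replicate 3. Il25, the interleukin-25 gene (ENSMUSG00000040770, chromosome 14, positions 54932695 to 54935837, forward strand), was read from 2, 1 and 2 fragments in Wild type and from 7, 0 and 4 fragments in ieCtnnb1KO. Those fragments correspond to 0.121, 0.0615 and 0.120 FPKM and to 0.404, 0 and 0.268 FPKM, and a count of 0 in knockout replicate 2 allows up to 0.168 FPKM (3 fragments, counting error only). Il25 was under the filter and not tested in limma, and no difference is read from so few fragments.

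**Figure D1:**
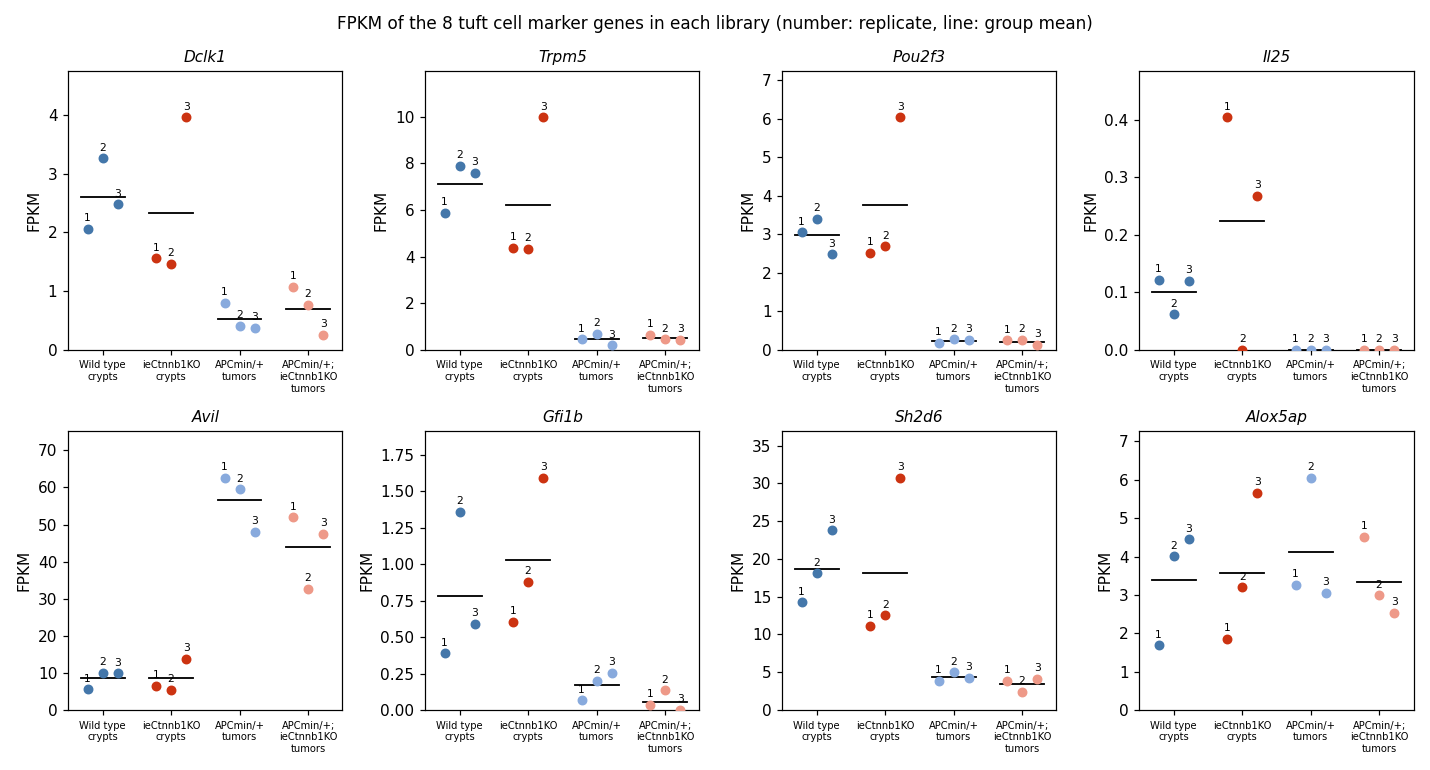
Each panel plots the FPKM of 1 gene in the 12 libraries by group, with the replicate number above each point and a line at the group mean. In crypts ieCtnnb1KO replicate 3 is the highest point in 7 of the 8 panels, and in tumors Avil alone stands above 30 FPKM.

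None of the 7 genes tested in crypts passed an adjusted p of 0.05 in limma, where 0 of 14176 genes did (0%), and the lowest adjusted p among the 7 was 0.927. At an unadjusted p under 0.05 the counts were 0 of 7 against 829 genes (5.85%), which split into 494 higher and 335 lower with the knockout. With libraries scaled to the same total the split was 737 higher and 156 lower. A second tool, voom on the recovered fragments, also called 0 genes. Groups that did not overlap were found for 0 of the 8 genes, against 1693 of all genes tested (11.9%). Exact two-sided permutation tests over the 20 arrangements of 3 against 3 libraries, which cannot go below p = 0.1, gave p from 0.4 to 0.9 for the 8 genes. The median log2 fold change of the 7 was -0.06, beside 0.01 for all genes tested.

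Without ieCtnnb1KO replicate 3, set aside because it was the highest for most of these genes, lower knockout values are expected for them from the choice alone. In that fit 0 of 14157 genes passed the adjusted threshold (0%) and 750 had an unadjusted p under 0.05 (5.30%). Trpm5, Dclk1 and Sh2d6 were lower in the 2 remaining knockout libraries than in all 3 controls, as were 1453 of all genes (10.3%). Their unadjusted p in limma fell under 0.05, as for 336 of all genes in that direction (2.37%), but given the choice of library it is not a test of these genes. The log2 fold change was below 0 for 6 of the 7 genes tested, Gfi1b being the exception, against 6731 of all genes (47.5%), and the median was -0.44 beside 0.01. Genes of other secretory cells were also below 0 in that fit: 8 of 8 goblet genes (median -0.50), 8 of 8 Paneth cell genes (median -0.61) and 10 of 12 enteroendocrine genes (median -0.34). With all 6 libraries these lists were already below 0, for 7 of 8 (median -0.29), 8 of 8 (-0.54) and 10 of 12 (-0.27). Of the tuft cell genes 4 of 7 were below 0 (-0.06), and of all genes 6698 of 14176. Among the further tuft cell genes described below, 19 of 21 were below 0 (median -0.08). Enterocyte genes ran the other way, with 8 of 8 above 0 (median 0.49). Leaving out ieCtnnb1KO replicate 1, ieCtnnb1KO replicate 2 or Wild type replicate 3 instead put 5 of the 7 tuft cell genes above 0. In bulk RNA, the number of tuft cells and the RNA of these genes per cell cannot be told apart.

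**Figure D2:**
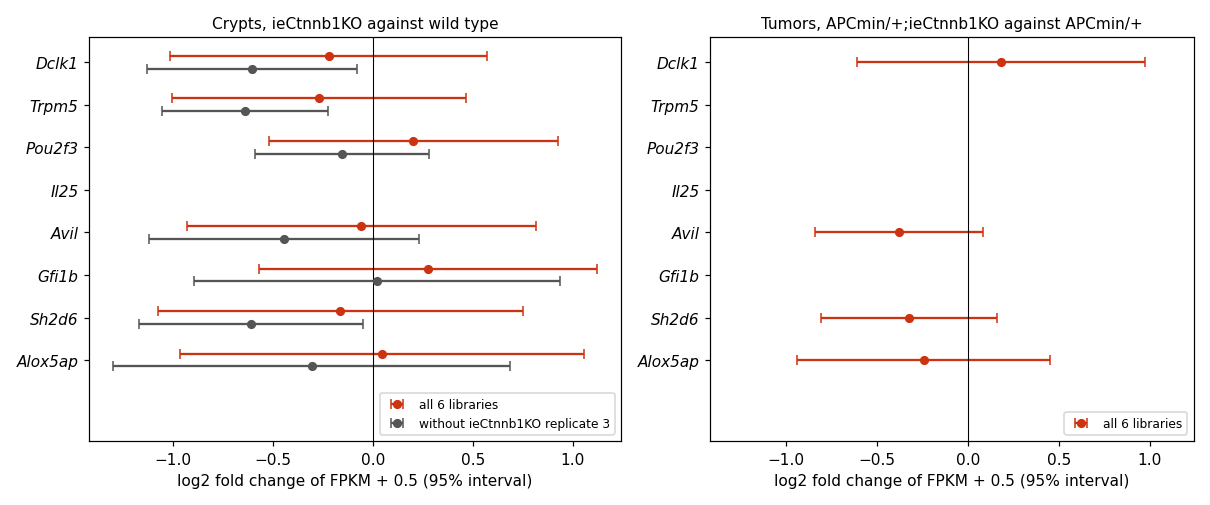
Points are log2 fold changes of FPKM + 0.5 in knockout against control with 95% intervals, at left for crypts with and without ieCtnnb1KO replicate 3 and at right for tumors. With all 6 libraries every interval includes 0, genes under the filter on low values have no point, and without replicate 3, which was set aside for its values, those of Dclk1, Trpm5 and Sh2d6 lie below 0.

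The tuft cell genes had similar profiles over the 6 crypt libraries, in part because most were highest in ieCtnnb1KO replicate 3. After the mean of each group was subtracted, the 21 pairs among the 7 genes had Pearson correlations of 0.578 to 0.980 over the 6 libraries (median 0.845), and 21 of 21 were above 0.5, beside 22.6% of all pairs of genes tested. Without ieCtnnb1KO replicate 3 the correlations over 5 libraries ran from -0.604 to 0.972 (median 0.675), with 17 of 21 above 0 (50.1% of all pairs) and the 4 others all with Pou2f3. The libraries share depth and preparation as well as genotype, so these values are a description. Summed over the 8 genes, the level was 33.0, 48.2 and 51.4 FPKM in Wild type and 29.0, 30.5 and 72.1 FPKM in ieCtnnb1KO. Wild type replicate 1 was thus nearer to knockout replicates 1 and 2 than to the other two controls.

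Promoter sequence was looked up because these genes had similar profiles over the crypt libraries, POU2F3 binds the octamer ATGCAAAT, and β-catenin acts through TCF/LEF factors that bind CTTTGAT. RefSeq windows of GRCm38.p6, from 250 bases before to 50 bases after a start, were matched by symbol for 5 of the 8 genes (6 windows, 2 of them for Dclk1), and not for Pou2f3, Il25 and Alox5ap. Both strands were searched for the octamer, for its first 7 letters ATGCAAA, which every full octamer also contains, and for CTTTGAT. Of 32851 mouse windows of this length, 1.74% held the octamer, 4.63% its 7-letter core and 3.73% CTTTGAT. The upstream window of Dclk1 held CTTTGAT once on the gene's strand, the window of Avil held the 7-letter core once on each strand, and those of Gfi1b, Sh2d6, Trpm5 and the second start of Dclk1 held none of the 3. The 250 bases before the start are printed for the pair with matches and for Trpm5, chosen after the values were seen because its log2 fold change in crypts without replicate 3 was the furthest from 0, with matched letters in capitals. They lie directly upstream of the annotated genes, at chr3:55242114-55242363 (forward strand) for Dclk1, chr10:127000459-127000708 (forward strand) for Avil and chr7:143094643-143094892 (reverse strand) for Trpm5. A match is only a run of letters, and binding was not measured.
Dclk1: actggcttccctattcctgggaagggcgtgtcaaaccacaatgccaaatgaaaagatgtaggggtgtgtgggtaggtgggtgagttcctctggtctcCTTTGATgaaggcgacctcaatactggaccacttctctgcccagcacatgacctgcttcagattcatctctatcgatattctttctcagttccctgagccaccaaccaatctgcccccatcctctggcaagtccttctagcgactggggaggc
Avil: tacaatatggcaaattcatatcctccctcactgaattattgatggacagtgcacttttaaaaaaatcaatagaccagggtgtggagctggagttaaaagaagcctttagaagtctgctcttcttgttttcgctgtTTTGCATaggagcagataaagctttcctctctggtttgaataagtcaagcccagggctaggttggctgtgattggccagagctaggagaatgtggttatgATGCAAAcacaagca
Trpm5: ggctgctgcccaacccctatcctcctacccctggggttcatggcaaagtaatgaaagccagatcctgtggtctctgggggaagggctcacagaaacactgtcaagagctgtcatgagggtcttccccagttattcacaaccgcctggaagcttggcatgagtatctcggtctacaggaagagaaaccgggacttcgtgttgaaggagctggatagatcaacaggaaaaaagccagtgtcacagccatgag

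Other genes of the same cells were read from lists built on general knowledge of the cell type. In the list of 22 further tuft cell genes, several of which blood cells or other epithelium also express, 21 were tested in crypts. At an unadjusted p under 0.05, 1 was lower and 0 were higher in ieCtnnb1KO (5.85% of all genes either way). The median log2 fold change was -0.08 (0.01 for all genes), and 19 of the 21 lay below 0, against 6698 of all 14176 genes. The highest value was in ieCtnnb1KO replicate 3 for 15 of the 21 (14.7% of all genes). The gene with the smallest p was Nrep, at 2.78, 3.49 and 2.94 FPKM in Wild type and 2.44, 1.73 and 1.98 FPKM in ieCtnnb1KO (log2 fold change -0.49, adjusted p = 0.800 in limma). Unlike most of the list, Nrep was not raised in replicate 3. The most abundant was the keratin Krt18, which all intestinal epithelium expresses, with a mean of 255 FPKM. Without replicate 3, 13 of the 21 lay below all controls (10.3% of all genes) and the median was -0.37.

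Rgs13 and Kctd12 of that list, picked after their values were seen, show the arrangement in single libraries. The regulator of G protein signalling Rgs13 measured 10.9, 13.7 and 10.1 FPKM in Wild type and 8.02, 9.88 and 18.4 FPKM in ieCtnnb1KO. Kctd12, a protein with a potassium channel tetramerization domain, measured 7.12, 9.58 and 6.39 FPKM and then 6.11, 5.28 and 13.1 FPKM. In both, knockout replicates 1 and 2 lay below all controls and replicate 3 above them.

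Upstream of Trpm5 in the cascade, 5 of 8 listed genes were tested in crypts. None of the 5 had an unadjusted p under 0.05 (5.85% of all genes), and the median log2 fold change was -0.14 (0.01 for all genes). The highest value was in ieCtnnb1KO replicate 3 for 2 of the 5 (14.7% of all genes). The most abundant was the calcium release channel Itpr3, with a mean of 25.4 FPKM and a range across libraries of 23.7 to 27.8 FPKM, so it did not share the high value in replicate 3 to the same degree. The smallest p belonged to the fatty acid receptor gene Ffar3 (log2 fold change -0.21, adjusted p = 0.917 in limma). Named after their values were seen, 3 genes of the list did not all have the same arrangement. The receptor gene Sucnr1, which responds to succinate, measured 0.394, 0.279 and 0.778 FPKM in Wild type and 0.225, 0.182 and 1.69 FPKM in ieCtnnb1KO, with replicate 3 above all others. Gnat3, a taste G protein subunit under the filter, ran the other way, at 0.285, 0.625 and 0.516 FPKM in Wild type and 0.271, 0.175 and 0.105 FPKM in ieCtnnb1KO, with replicate 3 the lowest, read from 6, 13 and 11 and then 6, 4 and 2 fragments. The taste receptor gene Tas1r3, also under the filter, measured 0.642, 0.501 and 0.652 FPKM and then 0.366, 0.288 and 0.424 FPKM. For both Gnat3 and Tas1r3 all knockout libraries lay below all controls. The share was 5.15% among genes that passed the filter and was not taken among genes under it. For Gnat3 the closest control and knockout libraries held 6 fragments each.

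Of 6 genes of leukotriene and prostaglandin synthesis beside Alox5ap, 5 were tested in crypts. None of them had an unadjusted p under 0.05 (5.85% of all genes), and their median log2 fold change was -0.05. Alox5, the 5-lipoxygenase that Alox5ap serves, measured 2.39, 3.55 and 2.97 FPKM in Wild type and 1.84, 1.72 and 6.57 FPKM in ieCtnnb1KO. Its 2 lowest values and its highest were all in the knockout. The phospholipase Pla2g4a was the most abundant (mean 3.56 FPKM), and the prostaglandin synthase Hpgds had the smallest p (log2 fold change -0.28, adjusted p = 0.903 in limma).

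In the list of 14 genes of the type 2 circuit, 7 were tested in crypts. None of the 7 had an unadjusted p under 0.05 (5.85% of all genes), and their median log2 fold change was -0.03. Il5 was 0 in all 6 libraries and Il13 was 0 in 5 of them, and Stat6 was the most abundant (mean 28.6 FPKM). The receptor chain Il4ra had the smallest p (log2 fold change -0.20, adjusted p = 0.916 in limma). Retnlb, a goblet cell product that interleukin-13 induces, measured 0.278, 3.85 and 1.65 FPKM in Wild type and 1.15, 1.11 and 23.1 FPKM in ieCtnnb1KO. Replicate 3 stood far above the other 5 libraries, of which the highest was a control.

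**Figure D3:**
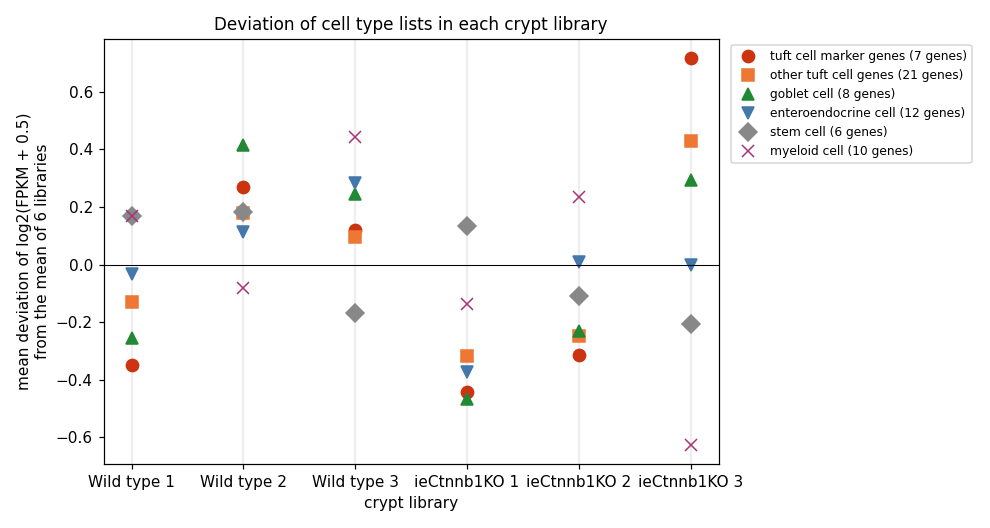
Each symbol is the mean deviation of a gene list, in log2(FPKM + 0.5), from the mean of the 6 crypt libraries. The tuft cell genes and the further tuft cell genes are highest in ieCtnnb1KO replicate 3 (0.72 and 0.43), where the myeloid list is lowest (-0.62). Among lists not plotted, enterocyte (0.60), mast cell (0.53), type 2 (0.51), cascade (0.44) and lipid mediator genes (0.42) were also highest there. Red cell and platelet genes, not plotted either, stood at -0.92 in it.

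Markers of other cells were summed in the same libraries. Goblet cell genes (8 of 8 tested, most abundant Tff3) summed to 6045, 9273 and 9753 FPKM in Wild type and 5483, 6571 and 8335 FPKM in ieCtnnb1KO, so replicate 3 was the highest of the knockout but not of all 6. Enteroendocrine genes (12 of 12 tested, most abundant Gip) summed to 305, 278 and 448 FPKM and to 227, 294 and 296 FPKM. The highest value was in replicate 3 for 0 of 12 (14.7% of all genes). Mast cells also express Alox5ap and Gfi1b, and their genes (3 of 9 tested, most abundant Mcpt1, with Cma1 at 0) summed to 29.9, 19.2 and 26.3 FPKM and to 29.7, 21.5 and 38.9 FPKM. Replicate 3 was the highest library for the mast cell sum. Enterocyte genes (8 of 8 tested) were on average highest in ieCtnnb1KO replicate 3 too, with a mean deviation of 0.60 in log2(FPKM + 0.5) beside 0.55 in Wild type replicate 3, and 4 of 8 were highest in the knockout library (14.7% of all genes).

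Summed myeloid and red cell genes were lowest in ieCtnnb1KO replicate 3. Myeloid cells also express Alox5ap, and their genes (10 of 13 tested, most abundant Fcer1g, with S100a8 at 0) summed to 45.9, 39.7 and 57.3 FPKM in Wild type and to 38.4, 46.2 and 29.1 FPKM in ieCtnnb1KO. Red cell and platelet genes (3 of 11 tested, most abundant Hbb-bs, with Ppbp at 0), a lineage that expresses Gfi1b, summed to 16.3, 11.8 and 19.4 FPKM and to 8.65, 19.1 and 5.49 FPKM. Enteric neuron and glia genes (1 of 10 tested, most abundant Ret, with Sox10 at 0) summed to 1.48 to 2.09 FPKM. The part of any of these cells in the tuft cell gene values was not tested.

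In tumors the same 8 genes stood in another order. Avil had a mean of 50.4 ± 10.6 FPKM (SD, n = 6), followed by Sh2d6 (3.92 ± 0.851), Alox5ap (3.73 ± 1.32), Dclk1 (0.613 ± 0.316), Trpm5 (0.477 ± 0.173), Pou2f3 (0.224 ± 0.0591), Gfi1b (0.115 ± 0.0993) and Il25, which was 0 in all 6 libraries. Avil lay above Sh2d6 in every library and Alox5ap above Dclk1, while the ranges of the other neighbours overlapped. Avil thus ranked above 93.9% of the genes tested in tumors, and above 63.8% of those tested in crypts.

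The tables of the tissues were normalized separately, so the following levels are set side by side without a test. The ranges of Trpm5 (4.33 to 9.98 FPKM in crypts, 0.199 to 0.682 FPKM in tumors), Pou2f3 (2.48 to 6.04 and 0.125 to 0.275 FPKM) and Sh2d6 (11.2 to 30.8 and 2.40 to 4.99 FPKM) did not overlap between tissues, and neither did those of Dclk1 and Gfi1b, as for 54.7% of all genes tested over the 12 libraries. Avil ran the other way, at 5.41 to 13.8 FPKM in crypts and 32.7 to 62.7 FPKM in tumors. Alox5ap covered much the same range in both, 1.68 to 5.67 and 2.53 to 6.06 FPKM. The genes therefore did not hold 1 ratio to each other across the tissues.

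**Figure D4:**
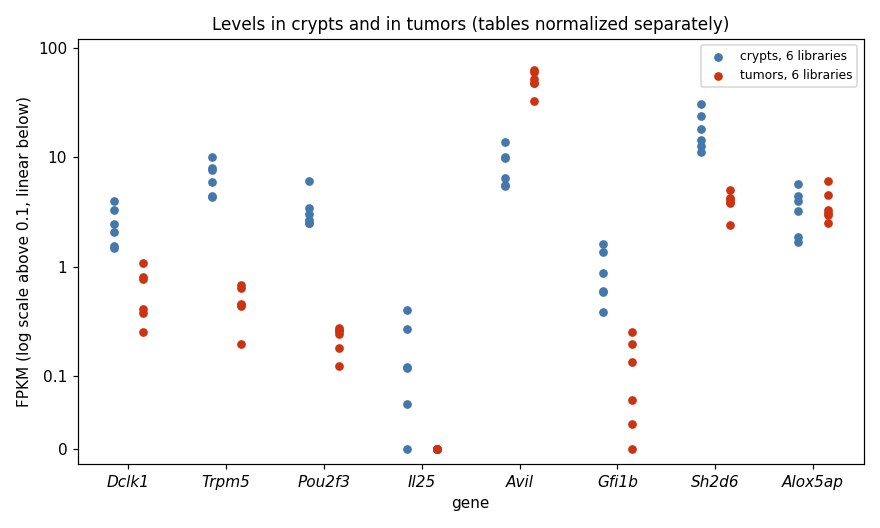
FPKM of each gene in the 6 crypt and the 6 tumor libraries, on an axis that is logarithmic above 0.1 and linear below. Trpm5, Pou2f3, Dclk1, Gfi1b and Sh2d6 lie lower in tumors, Avil lies higher, Alox5ap overlaps and Il25 is at 0 in tumors.

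In tumors Avil measured 62.7, 59.5 and 48.0 FPKM in APCmin/+ and 52.0, 32.7 and 47.5 FPKM in the knockout. The 2 highest values were controls and the 2 lowest knockouts, and the groups overlapped. The log2 fold change was -0.38 ± 0.19 (SE; 95% interval -0.84 to 0.08), with adjusted p = 0.407 in limma. Sh2d6 measured 3.88, 4.99 and 4.27 FPKM in APCmin/+ and 3.83, 2.40 and 4.13 FPKM in the knockout. Knockout replicate 2 was the lowest library for both genes, and the log2 fold change of Sh2d6 was -0.33 ± 0.20 (SE; 95% interval -0.81 to 0.16).

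Dclk1 measured 0.800, 0.408 and 0.376 FPKM in APCmin/+ and 1.07, 0.770 and 0.252 FPKM in the knockout. The knockout held both the highest and the lowest value, and the log2 fold change was 0.18 ± 0.33 (SE). Alox5ap measured 3.26, 6.06 and 3.06 FPKM in APCmin/+ and 4.51, 2.99 and 2.53 FPKM in the knockout, with a log2 fold change of -0.24 ± 0.29 (SE). APCmin/+ replicate 2 was the highest library for Alox5ap and for 4 of the 7 genes above 0 (14.2% of all genes), whereas knockout replicate 3 was the lowest for 4 of the 7 (21.0%).

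Among the genes under the filter, Trpm5 measured 0.454, 0.682 and 0.199 FPKM in APCmin/+ and 0.641, 0.448 and 0.441 FPKM in the knockout. Pou2f3 measured 0.180, 0.275 and 0.260 FPKM and then 0.241, 0.262 and 0.125 FPKM. Both overlapped between groups. Gfi1b was read from 2, 6 and 7 fragments in APCmin/+ and from 1, 4 and 0 in the knockout, and Il25 from 0 fragments in all 6 libraries, which allows up to 0.171 to 0.189 FPKM per library (3 fragments). For Gfi1b the count of 0 in knockout replicate 3 allows up to 0.105 FPKM.

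None of the 4 genes tested in tumors passed the adjusted threshold in limma, where 0 of 16743 genes did (0%), and 0 of 4 had an unadjusted p under 0.05, against 2421 genes (14.5%). Avil was lower at that level with libraries scaled to the same total (10.7% of all genes), with quantile scaling (7.66%) and without knockout replicate 1 (4.89%). With voom on the recovered fragments 0 genes were called as well. Groups that did not overlap were found for 0 of the 8 genes, against 3693 of the genes tested (22.1%). Exact two-sided permutation tests gave p from 0.2 to 0.9 for the 7 genes above 0. The median log2 fold change of the 4 was -0.29, beside 0.01 for all genes tested. The 6 pairs among the 4 genes had correlations of -0.441 to 0.738 over the 6 libraries (median 0.341) after group means were subtracted.

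The companion lists in tumors gave no gene past the adjusted threshold in limma. Of the further tuft cell genes 15 of 22 were tested, with 0 at an unadjusted p under 0.05 (14.5% of all genes). Their median log2 fold change was 0.08. Krt18 was again the most abundant (mean 527 FPKM), and Nrep again had the smallest p (log2 fold change -0.39, limma adjusted p = 0.380). Rgs13, at 8.02 to 18.4 FPKM in crypts, reached at most 0.301 FPKM in tumors. Of the cascade genes 3 of 8 were tested, with 0 at that level, a median of 0.01, Itpr3 as the most abundant (mean 41.0 FPKM) and Tas1r3 with the smallest p (log2 fold change -0.12, limma adjusted p = 0.779). Of the lipid mediator genes 6 of 6 were tested, with 0 at that level, a median of 0.23, Ptgs1 as the most abundant (mean 11.1 FPKM) and Tbxas1 with the smallest p (log2 fold change 0.25, limma adjusted p = 0.506). Groups did not overlap for 2 of the 15 further tuft cell genes, 0 of 3 cascade genes and 2 of 6 lipid mediator genes. Where they did not overlap, the knockout was higher (22.1% of all genes either way).

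In the type 2 list 11 of 14 were tested in tumors. At an unadjusted p under 0.05, 2 were higher and 0 lower in the knockout (14.5% of all genes either way), and the median log2 fold change was 0.25. Retnlb had the smallest p, at 6.57, 5.66 and 2.69 FPKM in APCmin/+ and 12.8, 11.6 and 8.57 FPKM in the knockout (log2 fold change 1.13, limma adjusted p = 0.278). For Retnlb all 3 knockout libraries lay above all controls (groups did not overlap for 22.1% of all genes either way). Il13ra1 was the other, with a log2 fold change of 0.26 and a limma adjusted p = 0.312. Goblet cells are the source of Retnlb, and their genes (8 of 8 tested, most abundant Spink4) summed to 1416, 1428 and 1464 FPKM in APCmin/+ and to 2706, 3247 and 2863 FPKM in the knockout. All 8 listed goblet genes had non-overlapping groups (22.1% of all genes), all higher in the knockout and all at an unadjusted p under 0.05, and 0 passed the adjusted threshold.

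Other cells that express some of the genes differed between tumor libraries too. Myeloid genes (13 of 13 tested, most abundant Lyz2) summed to 865, 867 and 971 FPKM in APCmin/+ and 843, 963 and 697 FPKM in the knockout. The sum hides differing members, as 2 of the 13 were higher (C1qa and C1qc) and 2 lower (S100a8 and S100a9) at an unadjusted p under 0.05 in limma. Mast cell genes (9 of 9 tested, most abundant Mcpt1) summed to 103, 48.1 and 60.5 FPKM and to 45.0, 132 and 26.1 FPKM. Knockout replicate 3 was lowest for both sums and for Alox5ap. Stromal genes (9 of 9 tested, most abundant Col1a1) summed to 362, 271 and 242 FPKM and to 388, 422 and 387 FPKM, and some stromal cells express Dclk1. Of the 9, 5 were higher in the knockout at an unadjusted p under 0.05 in limma (14.5% of all genes either way), 5 had non-overlapping groups (22.1%), and the median log2 fold change was 0.32. Red cell and platelet genes (9 of 11 tested, most abundant Hbb-bs) summed to 355, 363 and 273 FPKM and to 705, 89.6 and 1160 FPKM. None of these lists had a gene at 0 in all 6 tumor libraries, and their part in the values of Alox5ap, Gfi1b and Dclk1 was not tested. Enteric neuron and glia genes (4 of 10 tested, most abundant Ret) summed to 7.52 to 12.5 FPKM.

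Whether the knockout effect differed between tissues was tested by an interaction term over all 12 libraries. The effect in tumors minus that in crypts was 0.40 ± 0.50 (SE, log2) for Dclk1, -0.32 ± 0.46 for Avil, -0.16 ± 0.48 for Sh2d6 and -0.29 ± 0.57 for Alox5ap, the 4 genes that passed the filter in both tissues. None of these 4 passed the adjusted threshold in limma, where 0 of 16252 genes did (0%), and the lowest adjusted p among them was 0.831. At an unadjusted p under 0.05 the counts were 0 of 4 and 1455 of all genes (8.95%). Trpm5, Pou2f3 and Gfi1b entered the joint fit through their crypt values alone and were under the filter in tumors, so no interaction is read for them.

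The genes whose pattern was most like that of the tuft cell genes were sought among 11560 genes with a mean of at least 1 FPKM in both tissues. The profile was the mean scaled deviation from the group means of Dclk1, Avil, Sh2d6 and Alox5ap, the 4 genes that passed the filter in both tissues. Retnlb came first with a Pearson correlation of 0.930 over the 12 libraries. It was followed by Mtmr12 (0.912), Elmo2 (0.907), Ulk1 (0.906), Gm44040 (0.905), Pygl (0.905), Egln3 (0.898), Impdh1 (0.897), Gata5os (0.895) and Cog6 (0.889). Over the 11 libraries other than ieCtnnb1KO replicate 3 the correlation was 0.865 for Retnlb, 0.904 for Gm44040 and 0.902 for Ulk1. Deviations there were still taken from group means that included replicate 3. No ranking of all candidates without that library was made.

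Some fragments could belong to overlapping genes, since whether the counting used strand is not given in the sources used here. Trpm5 shares 1845 bases with Tssc4 on the opposite strand, which stood at 9.04 FPKM in crypts and 22.9 FPKM in tumors, where Trpm5 itself was 0.477 FPKM. Avil shares 9423 bases with Tsfm on the opposite strand, at 8.51 to 11.2 FPKM in crypts and 8.06 to 11.5 FPKM in tumors, while Avil itself reached 13.8 and 62.7 FPKM. Small genes within Dclk1 and an antisense gene of Alox5ap were each at most 0.167 FPKM. Pou2f3, Il25, Gfi1b and Sh2d6 overlapped no other annotated gene.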

How the data were processed

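RNA of small-intestinal crypts and of colon tumors was sequenced as read pairs, and the authors deposited gene-level FPKM, 1 table per tissue. Their methods name HISAT2, featureCounts and DESeq2, whereas the processing notes of the submitters list HISAT2, cutadapt, Cufflinks 2.2.1 and DESeq2, so which tool computed the deposited FPKM is not settled. All values of FPKM times gene length were whole multiples (within 0.05) of 1 step per library, which gave 14457896 to 16156712 fragments per library. Within each table the libraries had already been scaled to a common median ratio. Gene starts and ends matched GENCODE M21 (GRCm38) for 53499 of 54532 genes and for 7 of the 8 tuft cell genes, not for Sh2d6.

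Groups followed the sample labels. limma 3.58.1 in R 4.3.3, with a variance trend and two-sided tests, was fitted to log2(FPKM + 0.5) over all genes with a mean of at least 0.5 FPKM, per tissue and, for the interaction, over 12 libraries, with Benjamini-Hochberg adjustment and a threshold of 0.05. The code was tested on simulated data. A pseudocount understates changes of genes with low values. Single genes were also tested by exact permutation. Intervals cover 95%.

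Alternatives were other pseudocounts (0.1 and 1), filters (none, and a mean of at least 1 FPKM), scalings (same total, quantile), no variance trend, voom, the replicate number as a block, and leaving out each library. The genes named are the 8 tuft cell genes, Ctnnb1, in each companion list (cascade, lipid mediator, further tuft cell and type 2 genes) the most abundant gene and that with the smallest p, for markers of other cells mostly the most abundant alone, and the 10 genes most like the tuft cell genes. Outside that rule, Rgs13, Kctd12, Sucnr1, Gnat3, Tas1r3 (crypts), Alox5, Il5, Il13, Il13ra1, Retnlb (crypts), C1qa, C1qc, S100a8, S100a9, Epcam and the marker genes at 0 were named after their values were seen. The genes and lists were chosen with earlier results of these data known.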

Additional observations from a re-analysis of the deposited data

How the results depend on the processing

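Fold changes of the tuft cell genes in crypts were small beside the spread between 3 libraries, and in neither tissue did any gene of the 8 pass the adjusted threshold under any alternative run. Apart from leaving out libraries, 68 of 71 values in crypts, 44 of 45 in tumors and 16 of 16 for the interaction (4 genes) kept their direction or stayed within 1 SD, and the lowest adjusted p values from limma were 0.822, 0.307 and 0.520. The log2 fold change of Avil in crypts turned to 0.083 with libraries scaled to the same total and to 0.012 as a ratio of mean FPKM. That scaling moved the median of all genes in crypts from 0.01 to 0.14 and the counts at an unadjusted p under 0.05 from 494 higher and 335 lower to 737 and 156. In tumors it moved the median to -0.09 and the counts from 1417 and 1004 to 729 and 1791, and for the interaction the median to -0.22 and the counts from 837 and 618 to 289 and 1560. Quantile scaling turned the tumor counts to 1116 and 1282. Of the tuft cell genes in tumors, 1 of 4 (Avil) was lower at an unadjusted p under 0.05 with same-total scaling (10.7% of all genes lower at that level), quantile scaling (7.66%) and without knockout replicate 1 (4.89%), beside 0 of 4 in the main fit. Called genes changed from 0 to 1 in tumors without a variance trend, and for the interaction to 6 without a filter and to 1 with a pseudocount of 0.1. Without a filter the unadjusted count rose from 829 to 1349 in crypts and from 1455 to 2296 for the interaction.

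Leaving out each library in turn gave 0 to 3 called genes in crypts, 0 to 0 in tumors and 0 to 3 for the interaction, the 3 in both cases without Wild type crypt replicate 3. Unadjusted counts ran from 458 (without ieCtnnb1KO crypt replicate 1) to 1341 (without Wild type replicate 1) in crypts, from 1396 (without APCmin/+ replicate 2) to 2752 in tumors and from 1009 to 2043 for the interaction. In crypts the log2 fold change ran from -0.60 to -0.01 for Dclk1, -0.64 to -0.08 for Trpm5, -0.16 to 0.40 for Pou2f3, -0.44 to 0.20 for Avil, 0.02 to 0.58 for Gfi1b, -0.61 to 0.10 for Sh2d6 and -0.32 to 0.39 for Alox5ap. The lower ends are those without ieCtnnb1KO replicate 3, or for Alox5ap without Wild type replicate 1, and the direction also turned for Avil in 4 fits and for Sh2d6 in 3. In tumors the range was -0.049 to 0.48 for Dclk1 (below 0 without knockout replicate 1) and -0.45 to 0.036 for Alox5ap (above 0 without APCmin/+ replicate 2), while Avil (-0.51 to -0.18) and Sh2d6 (-0.45 to -0.12) kept their direction. For the interaction it was 0.17 to 0.78 for Dclk1 (0.40 in the main fit), -0.57 to 0.065 for Avil, -0.43 to 0.28 for Sh2d6 and -0.63 to 0.079 for Alox5ap. The 4 were all above 0 without ieCtnnb1KO replicate 3, the library singled out by its values for these genes (1 of 4 in the main fit). No interaction is read for Trpm5, Pou2f3 and Gfi1b, which were under the filter in tumors and entered the joint fit through crypts alone. Their ranges are listed only for completeness: 0.19 to 0.76 for Trpm5 and -0.46 to 0.10 for Pou2f3, whose sign turned in 1 fit. For Gfi1b the range was -0.76 to -0.32 over the 9 fits that held it. Why the direction of any of these genes turned was not tested. Ctnnb1 stayed below 0 in every fit of either tissue, at -0.31 to -0.23 in crypts and -0.48 to -0.34 in tumors without single libraries.

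Replicate numbers did not pair libraries: deviations of same-numbered libraries correlated at -0.0466, -0.122 and 0.0370 in crypts and 0.0541, -0.0898 and 0.0525 in tumors. With the number as a block, 0 genes were called in either tissue, and 732 in crypts and 1882 in tumors had an unadjusted p under 0.05. Depth limits Il25 in both tissues and Gfi1b in tumors, which rest on at most 7 fragments per library.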

Other observations

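Summed FPKM of the remaining marker lists, in the order control replicates 1 to 3 and knockout replicates 1 to 3, were as follows. No gene of these lists passed the adjusted threshold of limma in either tissue. In crypts, Paneth cell genes (8 of 8 tested, most abundant Defa24) summed to 19869, 28809 and 53783 FPKM in Wild type and 21598, 18794 and 21664 FPKM in ieCtnnb1KO, and enterocyte genes (8 of 8 tested, most abundant Fabp2) to 3481, 5027 and 9633 FPKM and 7428, 5541 and 8739 FPKM. Wild type replicate 3 was the highest for both. Stem cell genes (6 of 6 tested, most abundant Olfm4) summed to 1045, 839 and 600.2 FPKM and 1043, 876 and 787 FPKM, lowest in Wild type replicate 3. Within the stem list Axin2, a β-catenin target, had the smallest p, at 21.2 ± 1.79 FPKM in Wild type and 16.5 ± 2.56 FPKM in ieCtnnb1KO (SD, 3 libraries each), with a log2 fold change of -0.36 and a limma adjusted p = 0.845. Lymphoid genes (7 of 8 tested, most abundant Cd8a) summed to 41.9 to 51.0 FPKM, stromal genes (2 of 9 tested, most abundant Dcn) to 2.04 to 6.33 FPKM and eosinophil genes (0 of 4 tested, most abundant Prg2) to at most 0.535 FPKM.

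In tumors, Axin2 stood at 102 ± 4.83 FPKM in APCmin/+ and 81.3 ± 3.81 FPKM in the knockout (SD, 3 libraries each), with a log2 fold change of -0.32 and a limma adjusted p = 0.270. All 3 knockout libraries lay below all controls, as for 1781 of all 16743 genes tested in tumors. Colon genes (5 of 6 tested, most abundant Hoxb13) summed to 153, 167 and 178 FPKM in APCmin/+ and 208, 307 and 262 FPKM in the knockout, and epithelial genes (8 of 8 tested, most abundant Krt8) to 3720, 3818 and 3224 FPKM and 4447, 4395 and 4587 FPKM. Both sums were higher in each knockout library than in each control. Paneth cell genes (8 of 8 tested, most abundant Lyz1) summed to 2015, 2025 and 2154 FPKM and 2862, 4408 and 1669 FPKM, so the groups overlapped. Enteroendocrine genes (8 of 12 tested, most abundant Pyy) summed to 50.9, 164 and 58.8 FPKM and 72.9, 45.5 and 108 FPKM, and eosinophil genes (1 of 4 tested, most abundant Prg2) to at most 3.35 FPKM.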
